A study of Mus musculus with 6 samples.

Results

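The genes described here encode amino acid transporters of the plasma membrane, the carriers that move amino acids and related compounds between the blood and the cell. They were chosen by name as the rows of the deposited table whose symbol belongs to the solute carrier families Slc1a, Slc3a, Slc6a, Slc7a, Slc36a, Slc38a or Slc43a and whose counts summed to at least 10 over the 6 libraries. Of 61 such symbols among the 21899 genes in the table, 43 met the count limit. Just inside it lay Slc38a5, with a total of 11 counts, and just outside lay Slc6a3 and Slc1a7, with totals of 9 each. Another 16 symbols had totals of 8 or fewer, and 7 of these were at 0 in every library. The rule itself reads no difference between the diets, though it was written with earlier results of these data known.

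The libraries were made from polyA RNA of whole liver from wild-type C57BL6J mice kept for 6 weeks on 1 of 2 diets. The MCD group (3 libraries) received a diet deficient in methionine and choline, and the MCS group (3 libraries) received the matching diet with enough of both. The MCD diet is used in mice as a model of metabolic dysfunction-associated steatohepatitis (MASH), a fatty liver disease with inflammation. The labels name no mutant allele or drug in either group and give neither age nor sex. The labels do not say whether the libraries of a diet came from separate animals, so the p-values here reflect how far these samples spread, and that spread may be technical only.

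Carriers of this kind work in a few ways. Sodium-coupled carriers such as those of system A and system N concentrate amino acids in the cell, exchangers of the Slc1 and Slc7 families swap 1 amino acid for another, and Slc43 carriers let large neutral amino acids flow down their gradient. Several Slc7 proteins are light chains that reach the membrane only when joined to a heavy chain encoded by Slc3a1 or Slc3a2. In the liver, Slc38a3, Slc38a4 and Slc7a2 are known as hepatocyte carriers of glutamine, of small neutral amino acids and of arginine and lysine. The light chain encoded by Slc7a11 brings in cystine, which cells need for glutathione when methionine, the other source of cysteine, is scarce.

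The gene ontology terms in the deposited table placed 37 of the 43 genes at the plasma membrane. The 6 without that term were Slc6a16, Slc36a4, Slc38a10, Slc38a7, Slc38a9 and Slc6a21, and 6 genes carried a lysosome term, among them Slc36a1, Slc38a7 and Slc38a9. An amino acid transmembrane transporter term was given to 31 genes. Some of the others carry something else: Slc6a8 carries creatine, Slc6a4 carries serotonin and Slc43a3 carries purine nucleobases.

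The promoters of the members were searched for 2 DNA motifs bound by factors that respond to nutrient or oxidative stress. Promoter sequences from RefSeq (build GRCm38.p6, while the deposited counts rest on GRCm39; 250 bases before to 50 after a start) were found for 32 of the 43 genes. The amino acid response element bound by ATF4 with C/EBP proteins was searched as TGATGNAA and the antioxidant response element bound by NRF2 as TGACNNNGC, on both strands. Shown are the windows of the 4 risen members with a match (Slc7a11, Slc7a7, Slc7a6 and Slc7a1) and that of Slc38a2, a system A carrier that fell, which was picked from the 4 fallen members with a match after its values were seen. They run 5′ to 3′ on the gene's strand, with the matched letters in capitals.
Slc7a11 promoter, chr3:50443564-50443863, minus strand: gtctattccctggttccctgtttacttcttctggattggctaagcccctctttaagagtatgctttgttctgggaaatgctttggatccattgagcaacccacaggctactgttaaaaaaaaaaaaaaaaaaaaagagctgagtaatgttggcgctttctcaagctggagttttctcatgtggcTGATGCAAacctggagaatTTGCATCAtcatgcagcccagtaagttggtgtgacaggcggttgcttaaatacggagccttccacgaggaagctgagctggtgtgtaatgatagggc
Slc7a7 promoter, chr14:54417895-54418194, minus strand: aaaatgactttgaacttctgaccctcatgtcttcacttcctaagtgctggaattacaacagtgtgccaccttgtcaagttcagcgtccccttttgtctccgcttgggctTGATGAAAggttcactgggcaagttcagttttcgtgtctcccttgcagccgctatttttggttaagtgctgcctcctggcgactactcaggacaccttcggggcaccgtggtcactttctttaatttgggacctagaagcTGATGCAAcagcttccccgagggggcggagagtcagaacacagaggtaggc
Slc7a6 promoter, chr8:106168671-106168970, plus strand: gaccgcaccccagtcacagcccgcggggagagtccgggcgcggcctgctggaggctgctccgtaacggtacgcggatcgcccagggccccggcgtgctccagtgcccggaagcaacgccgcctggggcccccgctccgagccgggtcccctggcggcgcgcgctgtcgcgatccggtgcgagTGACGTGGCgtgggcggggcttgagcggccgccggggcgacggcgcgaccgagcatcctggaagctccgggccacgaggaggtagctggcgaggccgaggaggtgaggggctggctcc
Slc7a1 promoter, chr5:148399855-148400154, minus strand: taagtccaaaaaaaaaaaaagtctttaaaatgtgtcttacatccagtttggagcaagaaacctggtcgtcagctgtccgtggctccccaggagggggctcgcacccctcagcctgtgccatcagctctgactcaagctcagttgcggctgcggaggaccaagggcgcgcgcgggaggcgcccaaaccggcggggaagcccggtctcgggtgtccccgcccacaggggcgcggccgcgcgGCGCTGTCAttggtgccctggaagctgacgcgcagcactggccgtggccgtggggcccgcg
Slc38a2 promoter, chr15:96699679-96699978, minus strand: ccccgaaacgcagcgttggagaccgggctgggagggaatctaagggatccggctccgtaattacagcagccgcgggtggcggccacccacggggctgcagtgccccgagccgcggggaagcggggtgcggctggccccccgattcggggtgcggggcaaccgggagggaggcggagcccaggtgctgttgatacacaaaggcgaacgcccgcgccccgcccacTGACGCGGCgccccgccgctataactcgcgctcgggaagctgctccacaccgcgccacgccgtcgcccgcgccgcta

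Slc7a11 held 2 matches to the amino acid response element, starting 66 and 47 bases before the start, on opposite strands and not overlapping. The Slc7a7 window held 2 on 1 strand, 141 and 1 bases before the start, and it was 1 of 5 windows of that gene, of which 2 held a match. Slc7a6, Slc7a1 and Slc38a2 each held 1 match to the antioxidant response element, 68, 11 and 27 bases before the start in that order, that of Slc7a1 on the opposite strand. The other fallen members with a match were Slc6a21 for the first motif and Slc36a1 and Slc6a11 for the second. Among the 32 genes, 12.5% had a window with the amino acid response element, against 4.51% of the 27025 genes with any promoter, and 28.1% had one with the antioxidant response element, against 14.0%. Over single windows the shares were 3.97% and 12.4% of all 32851 promoters. The 32 genes had 50 windows, more per gene than over all genes, which favors them in a share counted per gene. Among members that rose, 2 of 8 with a promoter held the first motif and 2 of 8 the second, and among members that fell these numbers were 1 of 7 and 3 of 7. A match shows only that these letters are present, and binding was not measured.

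At the level of transcripts per length, a few hepatocyte carriers held most of the family's signal in both diets. In TPM, a transcript level corrected for gene length and library total that lets genes be compared, Slc38a3 stood at 1069 ± 183 in MCD livers and 1262 ± 60.2 in MCS livers (SD, n = 3 each). Slc38a4 followed at 469 ± 25.9 TPM in MCD and 573 ± 19.1 TPM in MCS livers. Slc6a13, a GABA and taurine carrier, had 173 ± 15.3 TPM in MCD and 134 ± 22.6 TPM in MCS livers, and Slc7a2 had 109 ± 21.9 TPM in MCD and 116 ± 8.05 TPM in MCS livers. Slc38a3 exceeded Slc38a4 and Slc38a4 exceeded Slc6a13 in 6 of 6 libraries, Slc6a13 exceeded Slc7a2 in 5 of 6, and Slc7a2 exceeded Slc38a10 in 6 of 6. Slc38a10, Slc1a2 and Slc6a12, at 52.4 to 73.9 TPM in MCD and 51.6 to 65.2 TPM in MCS livers, could not be ordered.

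The summed TPM of all 43 genes was similar in both diets, at 2310, 2539 and 2435 in MCD livers and 2492, 2506 and 2492 in MCS livers. Within that sum, Slc38a3, Slc38a4 and Slc7a2 together made 66.7%, 73.4% and 62.9% in MCD livers and 77.2%, 77.1% and 80.2% in MCS livers, with no overlap between the diets. This set holds the hepatocyte carriers named above and leaves out the abundant Slc6a13, and the share was not tested. The 12 genes that rose under the count test summed to 206, 152 and 319 TPM in MCD livers, against 72.1, 68.0 and 78.8 TPM in MCS livers.

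**Figure D1:**
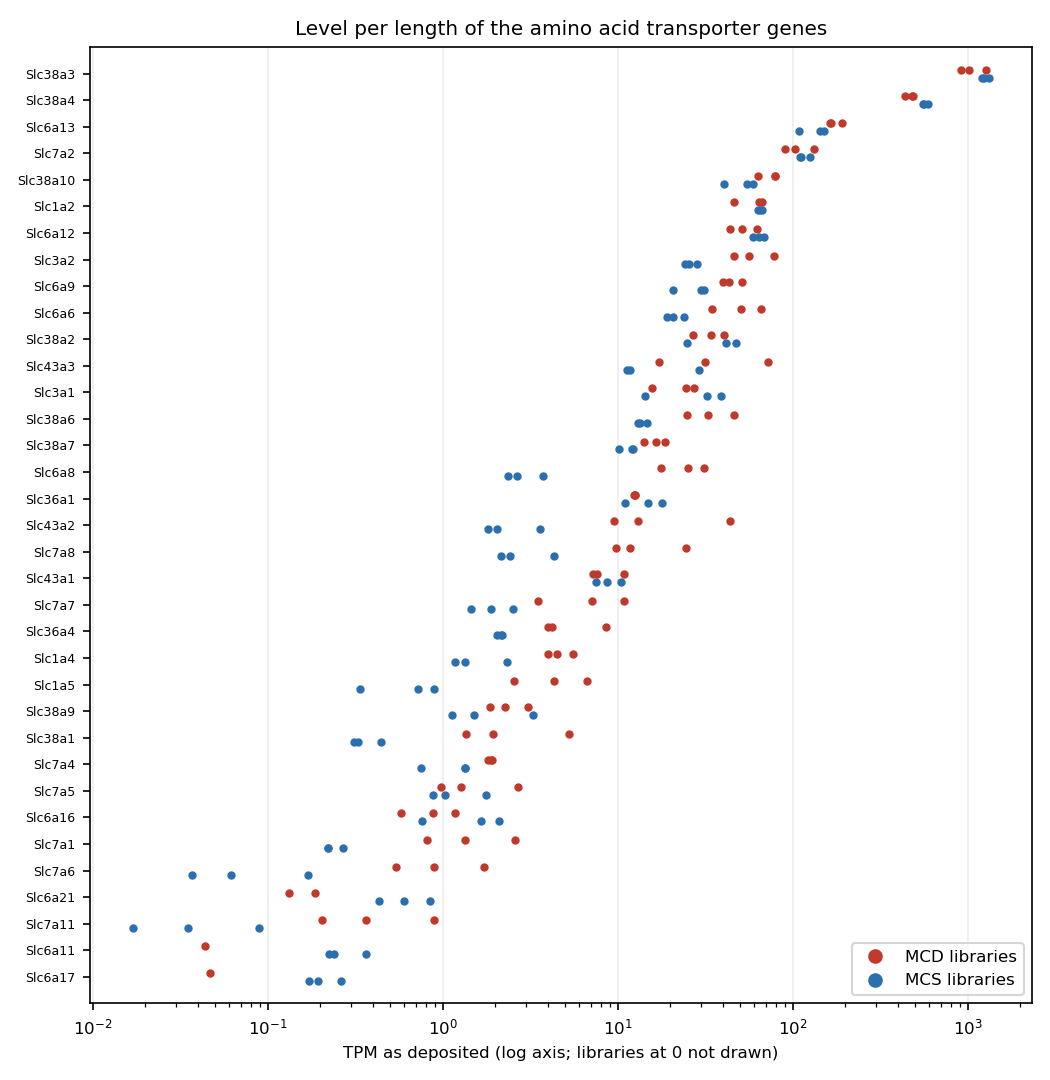
TPM of the 35 genes tested in each library on a log axis, genes ordered by mean TPM over the 6 libraries, with MCD libraries in red above MCS libraries in blue. Slc38a3 and Slc38a4 lie furthest right in both diets, at means of 1069 and 469 TPM in MCD and 1262 and 573 TPM in MCS livers; libraries at 0 are not drawn.

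Differences between the diets were tested on the counts, given below as CPM (counts relative to the library size after TMM scaling), with edgeR's quasi-likelihood test adjusted over 12599 genes. Log2 fold changes are MCD over MCS ± SE, and a gene is said to have risen or fallen at an adjusted p under 0.05. In whole liver, fewer cells of a type and less RNA per cell cannot be told apart. Of the 43 genes, 35 passed the filter on low counts and were tested. Among them 12 rose and 8 fell, which is 34.3% and 22.9%, while 14.8% of all genes tested rose and 9.97% fell. In either direction 57.1% of these genes and 24.7% of all genes passed. With library size alone 15 of the 35 rose, a share close to the 40.4% of all genes that did. The other 15 did not pass the test. The median log2 fold change was 0.04 over the 35 genes and 0.01 over all genes tested. Since 2 of the risen genes (Slc7a11 and Slc7a6) and 3 of the fallen ones (Slc6a11, Slc6a17 and Slc6a21) passed the filter through 1 diet alone, these counts are given as a description. Without them 10 genes rose and 5 fell among 30, and none of those 5 falls (Slc7a2, Slc6a12, Slc36a1, Slc38a4 and Slc38a2) passed with library size alone or on a TPM scale. In 14 of the 35 genes every MCD library lay above every MCS library, and in 9 every MCD library lay below. Over all genes tested these shares were 23.9% and 21.3%.

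**Figure D2:**
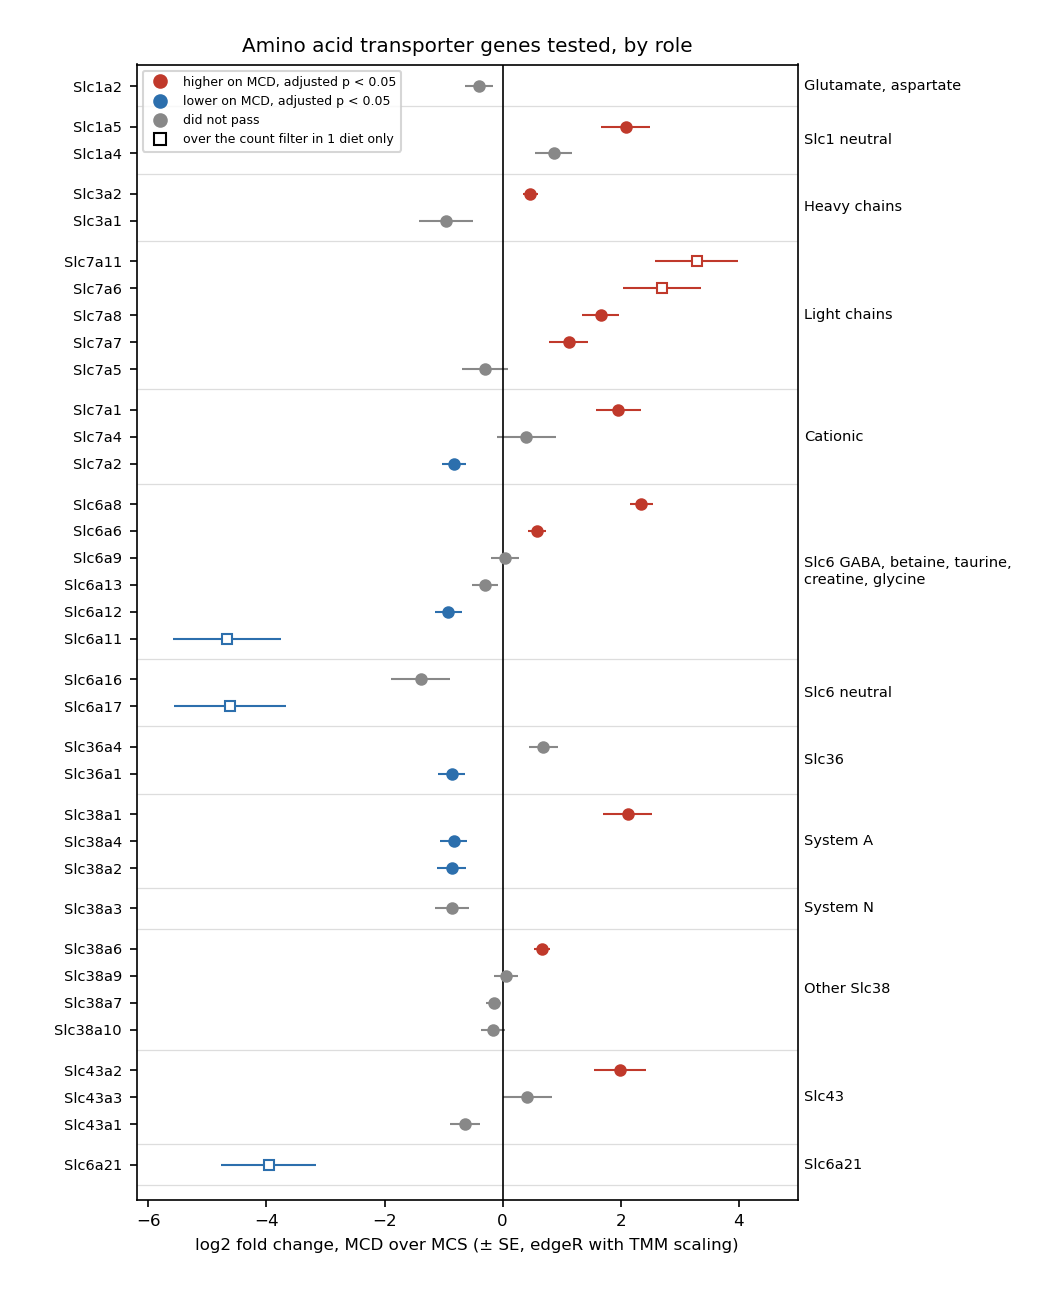
Log2 fold change, MCD over MCS, with its SE for the 35 genes tested, grouped by role, with red for genes that rose, blue for genes that fell and gray for those that did not pass; open squares are genes over the count filter in 1 diet only. The light chains lie to the right except Slc7a5, at −0.29, and the Slc6 genes spread from −4.67 to 2.35.

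The creatine carrier Slc6a8 and the taurine carrier Slc6a6 rose. The Slc6 carriers of GABA and betaine, among them Slc6a13, which also carries taurine, fell or did not pass. Slc6a8, which brings creatine into cells, had 36.1, 29.5 and 39.0 CPM in MCD livers and 6.73, 8.39 and 5.52 CPM in MCS livers. The groups lay far apart, with a log2 fold change of 2.35 ± 0.19 and an adjusted p of 0.000265, the smallest of the members. Slc6a6, which takes up taurine, had 139, 116 and 153 CPM in MCD livers and 92.2, 85.7 and 94.4 CPM in MCS livers. Its groups did not overlap, but the difference was smaller, with a log2 fold change of 0.58 ± 0.15 (adjusted p = 0.0260). Set against each other per length, Slc6a8 reached 0.493, 0.507 and 0.469 of the Slc6a6 level in MCD livers and 0.128, 0.194 and 0.0984 in MCS livers, a ratio chosen after its values were seen and not tested.

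Slc6a12, the carrier of betaine and GABA, fell. Betaine is the oxidation product of choline, which the MCD diet lacks. The gene had 59.3, 84.6 and 42.9 CPM in MCD livers and 110, 119 and 125 CPM in MCS livers, with no overlap and a log2 fold change of −0.92 ± 0.23 (adjusted p = 0.0213). Slc6a13, its more abundant relative, had 190, 194 and 136 CPM in MCD livers and 228, 250 and 164 CPM in MCS livers. These ranges overlapped, and it did not pass, at −0.30 ± 0.22 (adjusted p = 0.329). Slc6a9, a glycine carrier, did not pass, at 65.2 ± 15.4 CPM in MCD and 63.4 ± 16.7 CPM in MCS livers (SD, n = 3 each; log2 fold change 0.04 ± 0.24, adjusted p = 0.921).

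Among the rare Slc6 transcripts, 3 fell and were close to absent in MCD livers. Slc6a11, a GABA carrier, had 2 counts in all MCD libraries together and 41 in all MCS libraries, or 0, 0 and 0.0697 CPM in MCD and 0.690, 0.756 and 1.05 CPM in MCS livers. Relative to TMM-scaled library size it was 30.7 times higher in MCS than in MCD livers, with a 95% counting interval of 7.98 to 262 (adjusted p = 0.00867). Slc6a17, which in the brain loads neutral amino acids into vesicles, had 2 counts in MCD and 40 in MCS livers, or 0.0899, 0 and 0 CPM in MCD and 0.805, 0.907 and 0.772 CPM in MCS livers, a ratio of MCS over MCD of 30.0 (7.77 to 256, adjusted p = 0.0103). Slc6a21, for which no substrate is given here, had 0.135, 0 and 0.0697 CPM in MCD and 1.27, 1.51 and 0.717 CPM in MCS livers, from 5 counts in MCD and 55 in MCS libraries (log2 fold change −3.96 ± 0.81, adjusted p = 0.0101). At 3 counts the floor of a library was 0.104 to 0.227 CPM, so these differences rest on few reads.

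Slc6a16, a family member whose substrate is not established, did not pass, at 0.764, 1.85 and 0.975 CPM in MCD and 1.61, 3.63 and 4.19 CPM in MCS livers (−1.39 ± 0.50, adjusted p = 0.0723). Slc6a4 had 25 counts in MCD and 13 in MCS libraries, and Slc6a19, the neutral carrier of gut and kidney, had 18 in MCD and 5 in MCS libraries. Slc6a7, a proline carrier, had 7 in each diet.

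**Figure D3:**
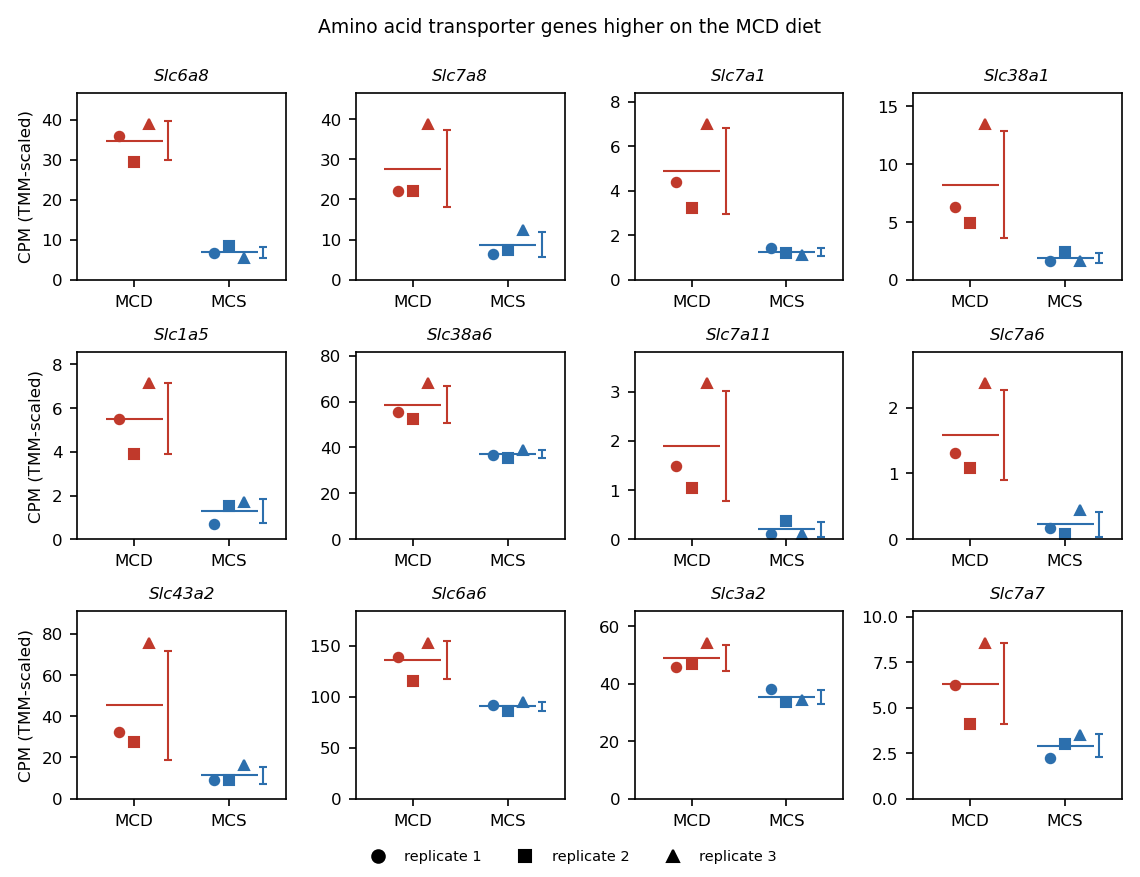
CPM in each library for the 12 genes that rose, with MCD libraries left of MCS libraries, a marker shape per replicate number, a line at the mean and a bar of ±1 SD that stops at 0. MCD replicate 3 is the highest library in each panel, reaching 75.7 CPM for Slc43a2 and 39.0 CPM for Slc6a8.

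Among the 5 light chains tested, Slc7a8, Slc7a7, Slc7a11 and Slc7a6 rose, as did the heavy chain Slc3a2. Slc7a11 and Slc7a6 passed the count filter through the MCD libraries alone. Slc7a11, the cystine and glutamate exchanger, had 33, 23 and 91 counts in MCD livers and 2, 5 and 2 counts in MCS livers, or 1.48, 1.04 and 3.17 CPM in MCD and 0.115, 0.378 and 0.110 CPM in MCS livers. Its log2 fold change was the largest rise of the members, at 3.29 ± 0.70 (adjusted p = 0.0123). Slc7a6, an exchanger of arginine for neutral amino acids with sodium, had 1.3, 1.09 and 2.37 CPM in MCD and 0.173, 0.0756 and 0.441 CPM in MCS livers (2.70 ± 0.66, adjusted p = 0.0199). Both are rare in whole liver, and in both every MCD library lay above every MCS library.

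Slc7a8, the exchanger LAT2 of neutral amino acids, was the most abundant light chain and had 22.2, 22.1 and 38.8 CPM in MCD livers and 6.50, 7.48 and 12.3 CPM in MCS livers. It rose with a log2 fold change of 1.66 ± 0.31 (adjusted p = 0.00753). Slc7a7, the other exchanger of arginine for neutral amino acids, had 6.25, 4.12 and 8.57 CPM in MCD livers and 2.24, 3.02 and 3.48 CPM in MCS livers (1.12 ± 0.33, adjusted p = 0.0396). In the GENCODE annotation its exons share 232 bases with Oxa1l on the opposite strand, as exons of Slc43a2, Slc7a2, Slc1a1, Slc1a2, Slc38a10 and Slc6a9 do with other genes, and since the labels do not say whether strand was kept, reads in such stretches cannot be told apart.

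Slc7a5, the exchanger LAT1 and a carrier of methionine, was the light chain that did not pass. It had 2.07, 1.90 and 3.66 CPM in MCD livers and 2.70, 2.34 and 4.30 CPM in MCS livers, with overlapping ranges (−0.29 ± 0.39, adjusted p = 0.614). Its share of the summed TPM of the 5 light chains was 5.95%, 6.52% and 6.61% in MCD livers and 22.0%, 16.5% and 19.9% in MCS livers, a share chosen after its values were seen.

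The heavy chain Slc3a2, also called CD98, had 45.6, 46.9 and 54.2 CPM in MCD livers and 38.3, 33.6 and 34.1 CPM in MCS livers, a rise of 0.47 ± 0.13 on the log2 scale (adjusted p = 0.0307). The heavy chain Slc3a1 did not pass, with 25.8, 34.2 and 13.7 CPM in MCD livers and 65.5, 55.6 and 22.7 CPM in MCS livers (−0.97 ± 0.45, adjusted p = 0.164), and replicate 3 was the lowest library of each diet. Its exons share 601 bases with Prepl on the opposite strand. Slc7a9, its usual light chain, had 2 counts over all libraries and is not among the 43 genes.

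The cationic carriers moved in opposite directions. Slc7a1, the arginine and lysine carrier of most tissues, had 4.41, 3.21 and 7.0 CPM in MCD livers and 1.44, 1.21 and 1.10 CPM in MCS livers (1.96 ± 0.38, adjusted p = 0.00818). Slc7a2, the hepatic form, had 288, 396 and 368 CPM in MCD livers and 609, 709 and 546 CPM in MCS livers (−0.83 ± 0.21, adjusted p = 0.0226). Neither gene overlapped between the diets, and Slc7a1 remained the rarer by far, at 1.46%, 0.781% and 1.92% of the summed TPM of both in MCD livers and 0.240%, 0.177% and 0.200% in MCS livers. Slc7a4, a relative with no established transport of its own, did not pass (0.40 ± 0.50, adjusted p = 0.587), and Slc7a14, a lysosomal relative, had 3 counts in MCD and 19 in MCS libraries.

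System A showed the same kind of split. Slc38a1, the form of most tissues, had 6.34, 4.89 and 13.5 CPM in MCD livers and 1.67, 2.42 and 1.65 CPM in MCS livers (2.12 ± 0.42, adjusted p = 0.00885). Slc38a4, the hepatic form, had 584, 768 and 539 CPM in MCD livers and 1153, 1212 and 1003 CPM in MCS livers (−0.83 ± 0.23, adjusted p = 0.0284). Slc38a2, a form that many cells induce when amino acids are short, had 73.3, 69.2 and 72.6 CPM in MCD livers and 144, 167 and 80.0 CPM in MCS livers (−0.86 ± 0.25, adjusted p = 0.0346). MCS replicate 3 lay near the MCD libraries for Slc38a2, though the groups did not overlap.

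The system N carrier Slc38a3, the most abundant member, had 1138, 1711 and 871 CPM in MCD livers and 2251, 2242 and 2236 CPM in MCS livers. Every MCD library lay below every MCS library, but the MCD libraries spread widely and the gene did not pass (−0.86 ± 0.29, adjusted p = 0.0577). It passed with DESeq2 (adjusted p = 0.00347) and without MCD replicate 2, the highest MCD library (−1.19, adjusted p = 0.00684). Slc38a5, the other system N gene, had 4 counts in MCD and 7 in MCS libraries.

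**Figure D4:**
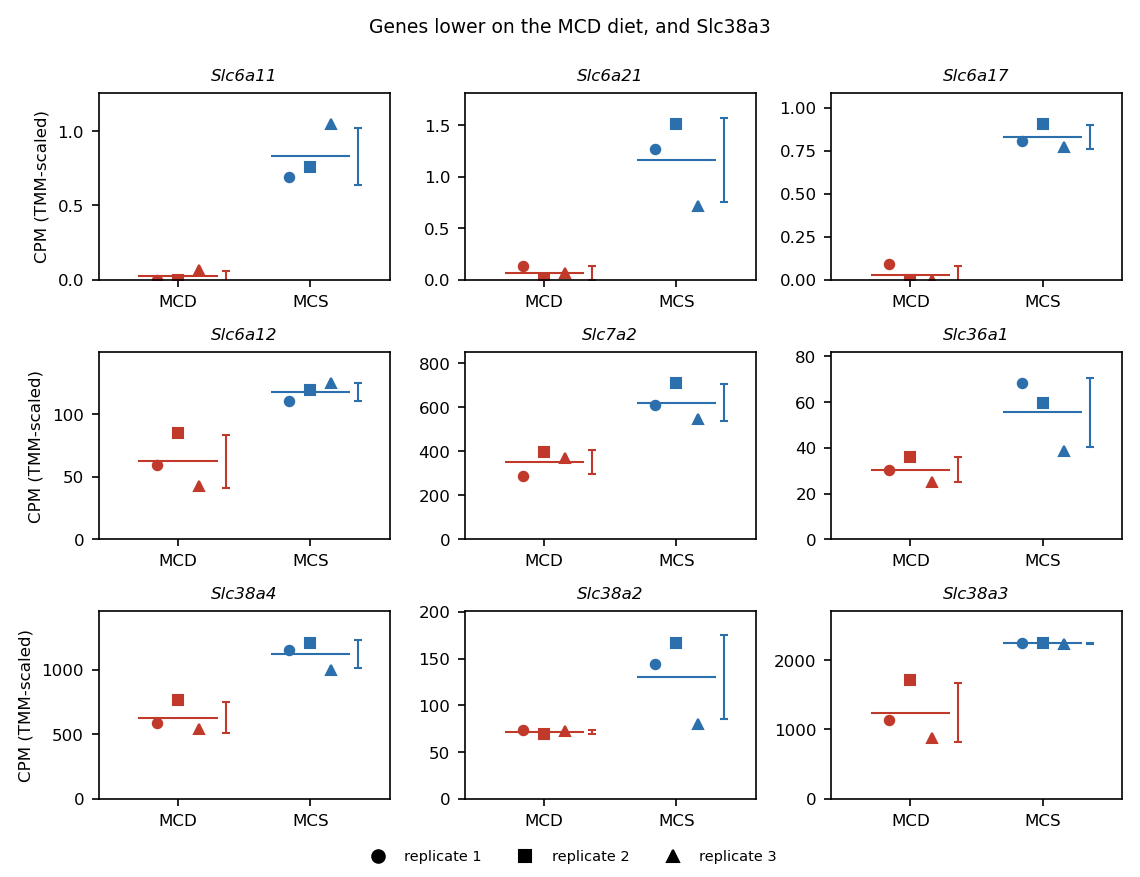
CPM in each library for the 8 genes that fell and for Slc38a3, which did not pass, with MCD libraries left of MCS libraries, marker shapes for replicate numbers, a line at the mean and a bar of ±1 SD that stops at 0. The MCD libraries lie below the MCS libraries in every panel, and for Slc38a2 the gap is narrow, between 73.3 and 80.0 CPM.

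Among the other Slc38 genes, Slc38a6 rose, with 55.4, 52.6 and 67.9 CPM in MCD livers and 36.8, 35.6 and 38.8 CPM in MCS livers (0.66 ± 0.14, adjusted p = 0.0114). Slc38a10 had 152, 145 and 129 CPM in MCD and 171, 192 and 117 CPM in MCS livers and did not pass (−0.17 ± 0.20, adjusted p = 0.566). The lysosomal glutamine carrier Slc38a7 (−0.15 ± 0.13, adjusted p = 0.426) and the lysosomal arginine sensor Slc38a9 (0.05 ± 0.20, adjusted p = 0.869) did not pass either. Slc36a1, a proton-coupled carrier of small amino acids found at the lysosome and cell surface, fell, with 30.4, 36 and 25.1 CPM in MCD livers and 68.3, 59.6 and 38.8 CPM in MCS livers (−0.87 ± 0.22, adjusted p = 0.0235). Its relative Slc36a4 lay higher in every MCD library than in any MCS library but did not pass (0.69 ± 0.24, adjusted p = 0.0705).

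In the Slc1 family, Slc1a5, the exchanger of glutamine, alanine, serine and cysteine, rose, with 5.49, 3.89 and 7.14 CPM in MCD livers and 0.690, 1.51 and 1.71 CPM in MCS livers (2.08 ± 0.41, adjusted p = 0.00885). The related Slc1a4 lay higher in every MCD library, at 9.98, 8.55 and 6.76 CPM against 6.73, 4.0 and 3.14 CPM in MCS livers, but did not pass (0.86 ± 0.31, adjusted p = 0.0738). The glutamate carrier Slc1a2 had 93.3, 160 and 128 CPM in MCD livers and 192, 185 and 127 CPM in MCS livers, with overlap (−0.40 ± 0.24, adjusted p = 0.244). Slc1a1 had 36 counts in MCD and 11 in MCS libraries, and Slc1a3 had 18 in MCD and 47 in MCS libraries.

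Of the Slc43 carriers, Slc43a2, which lets large neutral amino acids including methionine leave or enter cells, rose, with 32.4, 27.6 and 75.7 CPM in MCD livers and 9.15, 8.84 and 16.2 CPM in MCS livers (1.99 ± 0.44, adjusted p = 0.0199). Slc43a1 had 7.51, 12.5 and 6.65 CPM in MCD livers and 15.9, 12.9 and 12.5 CPM in MCS livers (−0.63 ± 0.25, adjusted p = 0.0975) and did not pass. Slc43a2 made 64.4%, 46.7% and 85.2% of the summed TPM of both genes in MCD livers and 16.3%, 17.3% and 32.4% in MCS livers, a share chosen after its values were seen. Slc43a3 did not pass (0.42 ± 0.41, adjusted p = 0.487). Of the 3 members that carried a methionine transport term in the deposited annotation, Slc43a2 and Slc3a2 rose and Slc7a5 did not pass. Among members without that term that were also listed here as methionine carriers, Slc7a8, Slc38a1 and Slc1a5 rose, while Slc38a2 and Slc38a4 fell.

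The falls of the abundant carriers depended on how libraries were scaled, while most of the rises passed with each scaling used. Over all genes, the middle log2 fold change was 0.57 with library size alone, 0.53 on the log2(TPM + 1) scale and 0.65 on the log2(TPM + 0.1) scale, against 0.01 with TMM. Slc7a2, Slc6a12, Slc36a1, Slc38a4 and Slc38a2 then ran from −0.42 to −0.27 with library size alone (adjusted p = 0.0686 to 0.347) and did not pass on either TPM scale with limma (adjusted p = 0.103 to 0.669). On TMM-scaled counts these genes were therefore lower relative to the other genes, while in TPM they did not pass. The 12 risen genes passed with library size alone and on the log2(TPM + 0.1) scale, and 11 of them on the log2(TPM + 1) scale, where Slc7a11 did not (0.48, adjusted p = 0.0797). Of the low Slc6 genes, Slc6a11 (−0.33, adjusted p = 0.0994) and Slc6a17 (−0.25, adjusted p = 0.177) also did not pass on that scale. Of all genes tested, 40.4% rose with library size alone, 43.2% on log2(TPM + 1) and 45.4% on log2(TPM + 0.1), against 14.8% with TMM. Since these scalings place most genes higher on the MCD diet, passing there cannot show that a rise is independent of scaling.

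Calls also differed in how they held when 1 library was left out. Slc6a8, Slc7a8, Slc7a1, Slc38a1 and Slc1a5 rose and Slc6a11, Slc6a17 and Slc6a21 fell in 6 of 6 such fits. Slc6a11, Slc6a17 and Slc6a21 passed the count filter through the MCS libraries alone, and Slc7a11 and Slc7a6 through the MCD libraries alone. How the calls of these genes held is therefore a description and adds no support. The call of Slc7a11 ended on leaving out MCS replicate 1 (adjusted p = 0.0612), and its log2 fold change was 2.69 without MCD replicate 3 and 4.0 without MCS replicate 2. Without MCD replicate 3 that of Slc43a2 was 1.39, and without MCS replicate 3 that of Slc7a6 was 3.56. The fitted values of the low Slc6 genes moved with single reads: Slc6a11 was at −6.97 without MCD replicate 3, Slc6a17 at −7.05 without MCD replicate 1 and −4.0 without MCD replicate 3, and Slc6a21 at −4.71 without MCD replicate 1. The call of Slc43a2 ended without MCS replicate 1 or 2 (adjusted p = 0.0728 and 0.0752), as did that of Slc38a6 (0.0581 and 0.0608), and Slc7a6 did not without either of these or MCD replicate 1 (0.0546 to 0.0861). Slc6a6 did not pass in 4 of the 6 fits (adjusted p = 0.056 to 0.119), those without MCD replicate 1 or any MCS library. Slc3a2 (0.0504 to 0.13) and Slc7a7 (0.0612 to 0.136) passed only without MCD replicate 2. Slc7a2 (0.0811 to 0.118) and Slc38a4 (0.106 to 0.13) did not pass without MCD replicate 1 or MCS replicate 1 or 2. Slc36a1 (0.0584 to 0.0944) and Slc38a2 (0.0847 to 0.128) did not pass without these or MCD replicate 3, and Slc6a12 (0.0587 to 0.0816) without MCD replicate 1 or any MCS library. Some genes that did not pass with all libraries did so with 1 left out: Slc1a4 without MCD replicate 3 (1.0, adjusted p = 0.0499) or MCS replicate 1 (1.23, adjusted p = 0.041), Slc3a1 without MCS replicate 3 (−1.31, adjusted p = 0.0355), and Slc6a16 (−1.87, adjusted p = 0.0196), Slc36a4 (0.77, adjusted p = 0.0396) and Slc43a1 (−0.99, adjusted p = 0.00659) without MCD replicate 2.

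**Figure D5:**
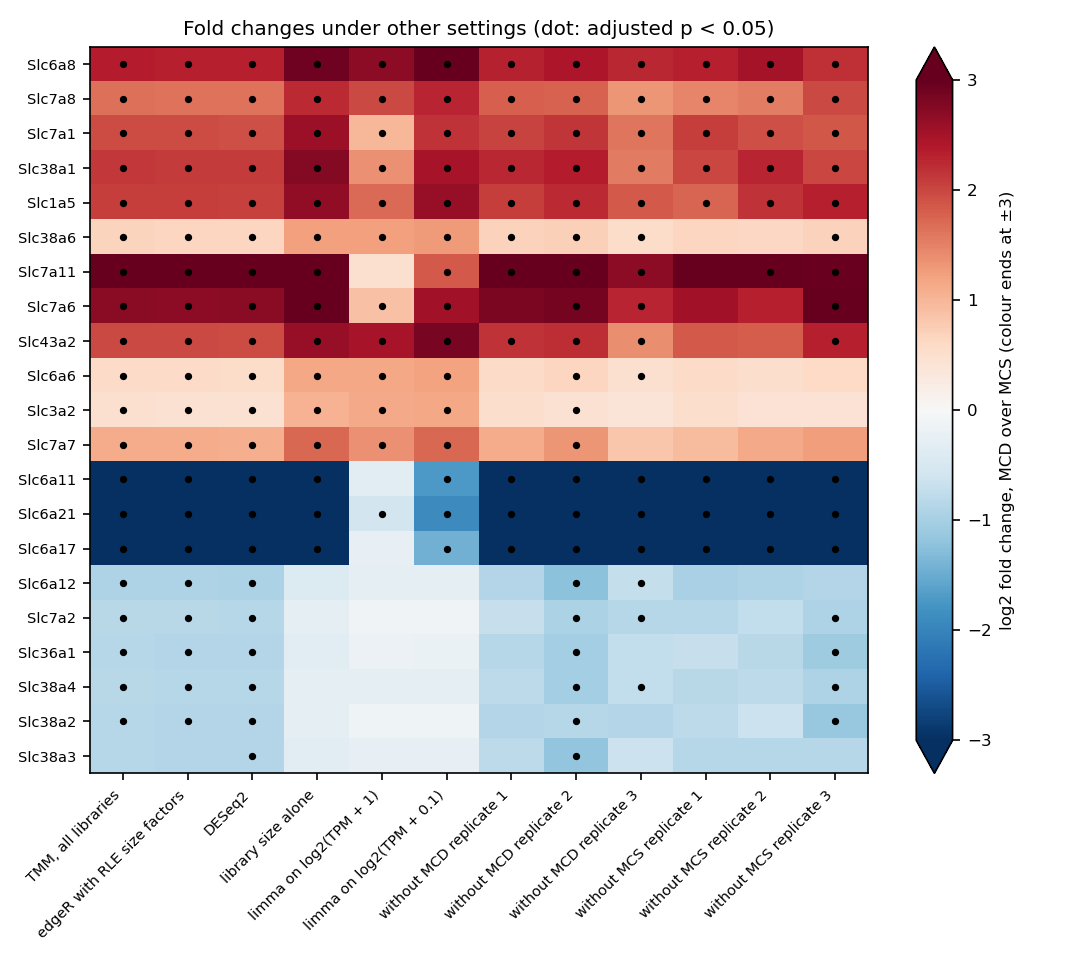
Log2 fold change, MCD over MCS, of the 20 genes called and Slc38a3 (rows) under 12 settings (columns), with red for higher and blue for lower on the MCD diet and a dot where the adjusted p was under 0.05. The 5 abundant genes that fell with TMM scaling lose their dots with library size alone and on both TPM scales, where Slc7a2 runs from −0.27 to −0.11.

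The order of libraries and the cell type markers were set beside these results. MCD replicate 3 had the highest and MCD replicate 2 the lowest CPM of the MCD libraries in 11 of the 12 risen genes. The second principal component of all genes set replicate 3 of both diets apart from the other libraries. The shares over all genes tested, to set beside the counts that follow, were 14.8% risen and 9.97% fallen. Markers of recruited macrophages rose in 13 of 14 tested (median log2 fold change 3.74), with summed CPM of 1141 to 2927 in MCD and 102 to 204 in MCS livers. Cholangiocyte markers rose in 9 of 11 (280 to 680 CPM in MCD, 87.5 to 141 CPM in MCS livers) and stellate cell markers in 6 of 12 (409 to 1854 CPM in MCD, 184 to 322 CPM in MCS livers). Spp1 is in both the macrophage and the cholangiocyte list and made much of the cholangiocyte sum. It had 318, 175 and 522 CPM in MCD livers and 56.7, 57.3 and 33.9 CPM in MCS livers. Hepatocyte markers fell in 5 of 12 and rose in 1 (56055 to 93558 CPM in MCD, 88662 to 113354 CPM in MCS livers). Markers of resident Kupffer cells fell in 4 of 12 (625 to 800 CPM in MCD, 802 to 977 CPM in MCS livers), and no sinusoidal endothelial marker of 12 passed (97.5 to 536 CPM in MCD, 174 to 688 CPM in MCS livers). T and NK cell markers rose in 3 of 10 (7.96 to 19.3 CPM in MCD, 4.83 to 7.72 CPM in MCS livers), B cell markers in 1 of 5 (15.8 to 28.5 CPM in MCD, 11.9 to 18.3 CPM in MCS livers) and neutrophil markers in 2 of 4 (7.19 to 25.4 CPM in MCD, 3.40 to 4.89 CPM in MCS livers). With 1 library left out, 12 to 13 macrophage, 6 to 10 cholangiocyte, 0 to 10 stellate, 1 to 3 T and NK, 0 to 1 B cell and 1 to 4 neutrophil markers rose, while 1 to 8 hepatocyte and 0 to 4 Kupffer markers fell and 0 to 1 hepatocyte markers rose. The hepatocyte count was 1 without MCS replicate 2 and 8 without MCD replicate 2, and the Kupffer and stellate counts were 0 without MCS replicate 2. Scaling moved some counts too, and the share of all genes that rose was then 40.4% to 45.4%. With library size alone 3 Kupffer markers rose and 2 fell, and on both TPM scales 4 rose and 2 fell. Stellate markers rose in 11 with library size alone, 11 on log2(TPM + 1) and 10 on log2(TPM + 0.1), while 13 macrophage markers rose in each of these. No marker in these lists was at 0 in every library. The part of these cells in the transporter results was not tested.

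Genes around amino acid supply were counted in the same fit. Of 19 amino acid response genes tested, which cells switch on through ATF4 when amino acids are short, 8 rose and 0 fell, with a median log2 fold change of 0.52. Of all genes tested, 14.8% rose and 9.97% fell. The rises were led by Nupr1 (3.21 ± 0.42, adjusted p = 0.00161), Atf3 (4.07 ± 0.51, adjusted p = 0.00252) and Ddit4 (2.30 ± 0.35, adjusted p = 0.00323). The other 11 did not pass, among them Atf4 itself (−0.38 ± 0.14, adjusted p = 0.0748) and Shmt2 (−0.56 ± 0.23, adjusted p = 0.101). In these 2 every MCD library lay below every MCS library, and in 9 genes of the list every MCD library lay above. With DESeq2, 8 of the list rose and 1 fell. Of 25 genes of amino acid sensing by mTORC1, 3 rose and 2 fell (median 0.02), shares close to the 14.8% and 9.97% of all genes that did. The Rag GTPase genes Rragd (3.60 ± 0.36, adjusted p = 0.000552) and Rragc (0.38 ± 0.12, adjusted p = 0.0434) and the leucine sensor family gene Sesn1 (0.97 ± 0.23, adjusted p = 0.0187) rose. Nprl2 (−0.97 ± 0.22, adjusted p = 0.0158) and Wdr24 (−0.54 ± 0.16, adjusted p = 0.0396), which encode parts of the GATOR complexes, fell. With library size alone 14 of the sensing genes rose and 0 fell, and Wdr24 then lay at 0.00052, so the directions within that list depend on the scaling. The calls of Rragd and of the 3 response genes held with each library left out. That of Rragc held in none of these 6 fits (adjusted p = 0.0534 to 0.173), Wdr24 passed only without MCD replicate 2, Sesn1 did not pass without MCS replicate 2 or 3 or MCD replicate 1 (0.0558 to 0.0736), and Nprl2 did not without MCD replicate 1 (0.0569).

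Of 8 amino acid and peptide carriers of other families tested, 1 rose and 1 fell, shares close to the 14.8% and 9.97% of all genes that did. The lysosomal histidine and peptide carrier Slc15a3 rose (2.11 ± 0.44, adjusted p = 0.0161) and the vesicular glutamate carrier Slc17a8 fell (−1.34 ± 0.27, adjusted p = 0.00993). Of 7 choline carriers tested, Flvcr1 (2.08 ± 0.36, adjusted p = 0.00548) and Slc44a4 (2.44 ± 0.55, adjusted p = 0.0147) rose and 0 fell, beside the same shares over all genes. Slc5a7 and Slc22a2 were at 0 in every library. The call of Slc15a3 ended when MCD replicate 3 was left out (adjusted p = 0.0505) or MCS replicate 2 (adjusted p = 0.0673), and that of Slc44a4 without MCD replicate 1 or MCS replicate 1 or 2 (0.0586 to 0.066). Slc17a8 did not pass with library size alone (−0.79, adjusted p = 0.0645) or on either TPM scale.

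In the authors' deposited table, which tests the diets with an FDR, 16 of the 43 genes were higher on the MCD diet at an FDR under 0.05. The 12 risen genes were among the 16. Slc6a11, Slc6a17 and Slc6a21 were lower in the authors' deposited table too at that FDR, while Slc7a2, Slc6a12, Slc36a1, Slc38a4 and Slc38a2 were not called there.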

How the data were processed

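Liver polyA RNA from 3 MCD and 3 MCS libraries was analysed, grouped by the labels' treatment. Per the submitters' processing notes, which name RSEM, StringTie 1.3.1, HISAT2 2.1.0, Bowtie2 2.2.8 and fastp 0.18.0 without roles, the build was GRCm39. The deposited table holds counts and TPM per gene and library, per the file headers. A count of 0 stands beside a positive TPM in 64 cells, which is how rounded RSEM-type estimated counts look, and the deposited whole numbers were tested as such. The authors' log2 fold change, the ratio of their mean TPM, and their p-value and FDR are also deposited. Unnamed rows (30) held 0.000104% of counts and were not removed, so the 21899 genes in the table and the library totals include them.

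Counts (16615469 to 21322771 per library) were tested in R 4.3.3 with edgeR 4.0.16, using TMM, filterByExpr with a minimum count of 10, a robust quasi-likelihood fit with diet as its only term and Benjamini-Hochberg adjustment. SE is the log2 fold change over the square root of F. Genes with near-identical copies can share reads, and 95% counting intervals cover counting error only. Alternatives used DESeq2 1.42.0, limma 3.58.1 on log2(TPM + 1) or log2(TPM + 0.1), RLE size factors, library size alone, no filter, a replicate block, an adjusted p under 0.01 and each library left out. Named genes were all members called, the 6 with the highest TPM, both heavy chains, the cystine and methionine carriers, and up to 3 called genes per direction of each other list; others are named to account for the members, of which 1 is not reported here. The rule for members reads no values of the comparison, but members and lists were chosen with earlier results of these data known.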

Additional observations from a re-analysis of the deposited data

How the results depend on the processing

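With TMM scaling 12 members rose and 8 fell. The same 20 were called with RLE size factors and with DESeq2, which called 12 in each direction. Of the 35 members tested, 15 rose and 3 fell with library size alone. On log2(TPM + 1) 16 rose and 1 fell, and on log2(TPM + 0.1) 17 and 3. Among all genes, 40.4%, 43.2% and 45.4% rose and 2.76%, 2.1% and 2.17% fell in that order. The share of members that rose was thus close to that of all genes with these scalings, unlike with TMM. At an adjusted p under 0.01, 5 members rose and 1 fell, beside 5.98% and 2.41% of all genes. Leaving out 1 library gave 6 to 13 risen and 3 to 11 fallen members, and 6 and 3 without MCS replicate 1 and also without MCS replicate 2. Leaving out replicate 3 of both diets, a choice made after seeing the data, gave 10 and 9, and Slc38a1 was then at 1.47. Of all genes tested, 1861 rose and 1256 fell, so 59.7% of those called were higher. This share was 93.6% with library size alone (5095 and 348) and 95.4% on both TPM scales (5449 and 264 on log2(TPM + 1), 5718 and 274 on log2(TPM + 0.1)). At an adjusted p under 0.01, 754 rose and 304 fell. Leaving out 1 library gave 946 to 2363 risen and 400 to 2072 fallen genes.

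Of the 4 lists of amino acid response, sensing, other carrier and choline carrier genes together, 14 genes rose and 3 fell. The risen were 33 with library size alone, 40 and 39 on the TPM scales with pseudocounts of 1 and 0.1, 8 at an adjusted p under 0.01, 18 without replicate 3 of both diets and 8 to 14 with 1 library left out. The fallen were 0 with library size alone and on both TPM scales, 6 with DESeq2, 5 with no filter, 5 without replicate 3 of both diets, 1 at an adjusted p under 0.01 and 1 to 6 with 1 library left out. Cell type markers called at an adjusted p under 0.01 were 17 risen and 1 fallen, with DESeq2 14 fell, and with 1 library left out 19 to 42 rose and 1 to 12 fell.

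Some small differences changed sign. With library size alone Slc1a2 was at 0.15, Slc7a5 at 0.29, Slc6a13 at 0.24, Slc38a10 at 0.39 and Slc38a7 at 0.39. The sensing gene Wdr24 was at 0.00052 with library size alone, 0.10 on log2(TPM + 1) and 0.11 on log2(TPM + 0.1). On log2(TPM + 1) Slc7a5 was at 0.22, Slc6a13 at 0.38, Slc38a10 at 0.52 (adjusted p = 0.0391) and Slc38a7 at 0.48 (adjusted p = 0.045), and on log2(TPM + 0.1) they were at 0.34, 0.38, 0.53 (adjusted p = 0.0345) and 0.51 (adjusted p = 0.0429) in the same order. With 1 library left out, Slc7a5 ran from −0.66 to 0.0032 (above 0 without MCS replicate 3), Slc6a9 from −0.17 to 0.23 (below 0 without MCS replicate 3, MCD replicate 1 or MCD replicate 2), Slc38a9 from −0.069 to 0.16 (below 0 without MCS replicate 3 or MCD replicate 2) and Slc43a3 from −0.045 to 0.80 (below 0 without MCD replicate 3). Slc38a9 was at −0.036 without replicate 3 of both diets. The cause of these changes was not tested.

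Replicate numbers do not mark pairs in the labels, and same-numbered libraries correlated at 0.0630, 0.147 and 0.246 in their deviations from the group means. With a replicate block 13 members rose and 11 fell, with the 4 added calls being Slc38a3 (−0.91, adjusted p = 0.0479), Slc1a4 (adjusted p = 0.0281), Slc3a1 (adjusted p = 0.0078) and Slc6a16 (adjusted p = 0.0382). Of all genes 1987 rose and 1296 fell in that fit, 5 genes of the 4 lists fell and 16 cell type markers fell. Depth limits the rare members, since 3 counts stand for 0.104 to 0.227 CPM depending on the library.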
